A study of Mus musculus with 15 samples.

Results

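The 9 genes described here belong to the Notch signalling pathway: Neurl1b, Rfng, Notch1, Notch2, Jag1, Adam10, Adam17, Mib1 and Hes1. They were measured in 15 RNA sequencing libraries of 6DT1, a metastatic mouse mammary cancer cell line, in which the level of Smarcd1 had been altered. Smarcd1 encodes a subunit of the SWI/SNF (BAF) chromatin remodelling complex. All 9 members were found by gene identifier in both gene tables, which held 13669 genes for the hairpin lines and 13501 genes for the overexpression lines. A transcript table held 30220 transcripts in all 15 libraries, and 19 of these belonged to the members. Neurl1b and Rfng were picked because they stood out between the Smarcd1 hairpin lines and their control, Neurl1b at the gene level and Rfng at the transcript level. Their differences in those contrasts are therefore given as a description, without a test. The other 7 members are the receptors, ligand, proteases, ligase and target gene that surround them in the pathway.

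The cells formed 5 lines of 3 libraries each, all grown as a monolayer on plastic without treatment. One line overexpressed Smarcd1 (OE) and had an empty-vector line (EV) as its control, both selected in blasticidin. KD4 and KD6 each carried a different hairpin against Smarcd1, and together they formed a KD group of 6 libraries, whose control line carried a scrambled hairpin (shScr). The hairpin lines were selected in puromycin. EV and shScr thus differ in vector and drug, and no parental 6DT1 library was analysed here. Replicates were seeded from different passages of 1 transduced line on successive days. In comparisons of single lines, p-values therefore measure the spread between passages of a line and not between independent transductions. Where the KD group was fitted as 1 group, its 6 libraries were treated as replicates of 1 condition. The p-values and standard errors of those fits also contain the difference between KD4 and KD6.

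Levels are in CPM, the read count of a gene scaled to the size of the library. CPM is not divided by gene length, so levels of different genes are not compared. The total read number per library was unknown and no counting interval could be given. Smarcd1 itself averaged 65.7 ± 4.40 CPM (SD, n = 3) in OE and 29.6 ± 2.37 in EV. It averaged 9.13 ± 0.121 CPM in KD4 and 15.3 ± 1.01 in shScr, a fall that passed the limma test (adjusted p = 0.000873). In the libraries labelled KD6 it averaged 14.4 ± 1.03 CPM, and the difference from shScr did not pass (adjusted p = 0.701). KD6 is used below as the name of a label, and directions drawn from it do not rest on a measured fall of Smarcd1 messenger RNA. Of 8 epithelial markers 3 were listed (Krt8, Krt18 and Krt19), with a summed level of 698 to 770 CPM in shScr and 660 to 961 CPM in the other lines, while the defining markers Epcam and Cdh1 were absent from the tables. Krt8 and Krt18 carry this sum. Krt19 fell in KD4 to 57.3% of shScr (limma adjusted p = 0.00106), where Krt18 was 1.25 times shScr (adjusted p = 0.0872). Of the markers of other cell types, the fibroblast list had 1 of 7 genes listed (Pdgfra) and the immune list 1 of 7 (Cd68, 27.4 to 68.7 CPM), and Ptprc was not listed. Pdgfra averaged 3.14 CPM in shScr, 4.75 in KD6 and 7.51 in KD4. The part of Krt19 and Pdgfra in the results was not tested. In the OE and EV table, EV replicate 1 lay apart from the other 5 libraries on the first principal component.

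Notch receptors are cut and reassembled on their way to the cell surface, and fringe enzymes such as Rfng lengthen the O-linked fucose sugars on them, which changes how well they respond to Delta and Jagged ligands. In the cell that sends the signal, ubiquitin ligases of the Mind bomb (Mib1) and Neuralized (Neurl1b) families mark the ligand for endocytosis, and the resulting pull opens the receptor. An Adam protease then cuts the receptor outside the membrane, and gamma-secretase cuts it within. The freed intracellular part joins Rbpj and Mastermind in the nucleus to switch on genes such as Hes1. In the mammary gland the pathway is known for its part in luminal cell fate, and several of its members have been linked to breast cancer.

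The Rfng gene lies on the minus strand at chr11:120642060-120645521 of build NCBIM37, and no other annotated gene overlaps it. Both of its listed transcripts matched the GENCODE annotation of that build. ENSMUST00000026156 has 8 exons and encodes the protein, with 996 coding bases. ENSMUST00000123273 has 6 exons, is annotated as a processed transcript without a coding sequence, and retains introns 4 and 5 of the coding transcript, of 289 and 80 bases. In the 4 sequences that follow, which show where the transcripts part, the last 30 bases of the exon upstream are in lower case, and the capitals mark what follows it, the next exon in the coding transcript and the intron in the other one. They were read 5′ to 3′ from the minus strand of NCBIM37. The exon 4 to exon 5 junction joins the ends of chr11:120644002-120644350, and exon 4 runs into intron 4 at chr11:120644291-120644350. The exon 5 to exon 6 junction joins the ends of chr11:120643833-120643972, and exon 5 runs into intron 5 at chr11:120643913-120643972.
Exon 4 to exon 5, spliced: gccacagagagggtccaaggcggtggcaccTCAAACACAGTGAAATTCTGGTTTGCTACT
Exon 4 into intron 4, retained: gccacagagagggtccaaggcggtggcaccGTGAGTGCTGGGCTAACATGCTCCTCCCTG
Exon 5 to exon 6, spliced: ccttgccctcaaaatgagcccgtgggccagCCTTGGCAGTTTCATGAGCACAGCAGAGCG
Exon 5 into intron 5, retained: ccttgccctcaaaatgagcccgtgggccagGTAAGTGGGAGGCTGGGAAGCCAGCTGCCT
Of the 996 coding bases, 576 (57.83%) lie before intron 4. If the reading frame of the coding transcript is carried on into intron 4, a stop codon ends 270 bases into it.

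**Figure D1:**
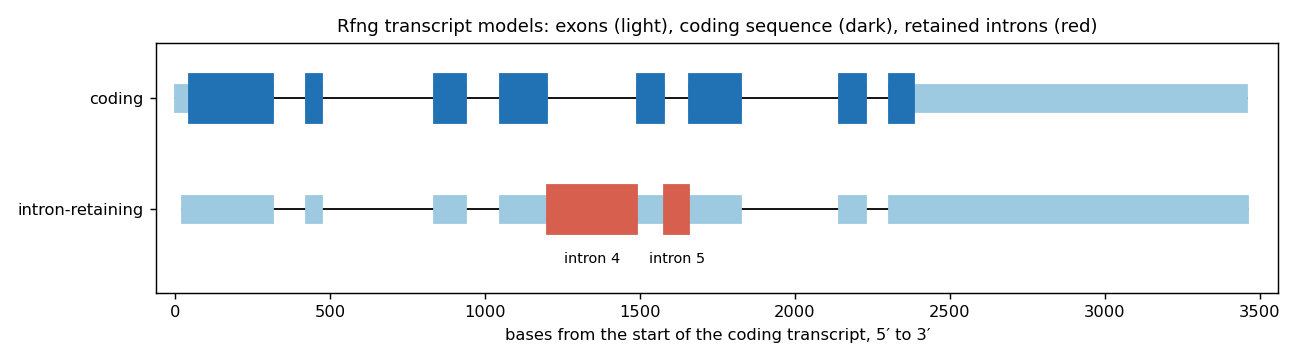
Map of the Rfng transcripts, drawn to scale in bases from the start of the coding transcript, with exons as light bars, coding sequence as dark bars and the 2 retained introns in red. The transcripts share their other exons, apart from the outer ends of the first and last exon. The retained introns 4 (289 bases) and 5 (80 bases) join 3 exons of the coding transcript into 1.

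Rfng, the fringe glycosyltransferase, was low in shScr and higher in both hairpin lines. At the gene level it measured 3.57, 6.14 and 5.79 CPM in the shScr libraries, 11.1, 9.54 and 9.75 CPM in KD4, and 17.1, 15.6 and 13.99 CPM in KD6. The 3 lines did not overlap, and KD6 lay above KD4. Such separation of KD4 or KD6 from shScr was seen in 29.5% and 22.2% of all genes, and that of KD6 from KD4 in 21.6%. The fold over shScr was 1.96 in KD4 and 3.01 in KD6, and the log2 difference between KD6 and KD4 was 0.57 ± 0.16 (SE).

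The coding transcript carried this difference. It measured 1.05, 1.41 and 2.703 CPM in shScr, 9.65, 8.30 and 9.10 CPM in KD4, and 17.9, 16.0 and 11.8 CPM in KD6. The lowest hairpin library, a KD4 library at 8.30 CPM, lay far above the highest shScr library. The log2 change of KD against shScr was 2.26 ± 0.26 (SE). The intron-retaining transcript measured 2.10, 3.24 and 2.42 CPM in shScr, 2.15, 1.96 and 0.819 CPM in KD4, and 1.13, 2.00 and 2.08 CPM in KD6. Its log2 change was -0.43 ± 0.20 (SE), and 1 KD4 library lay within the range of shScr.

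As a share of the summed CPM of both transcripts, the coding transcript made up 38.8% ± 12.2 (SD, n = 3) in shScr, 84.8% ± 6.02 in KD4 and 89.3% ± 4.54 in KD6. It was the minor transcript in 2 of the 3 shScr libraries, and the other had it at 52.8%. The sum of both transcripts was 0.758 to 1.19 times the Rfng gene value of the same library. This range was wider than for the other 8 members (0.928 to 1.01), so the split between the transcripts rests on an assignment that did not add up exactly. The mismatch went with the line. In shScr the sum averaged 4.31 CPM, below the gene value of 5.16 CPM. In the means of the other lines it lay above the gene value, with 10.7 beside 10.1 CPM in KD4 and 17.0 beside 15.6 CPM in KD6. The difference between shScr and the hairpin lines was thus wider in the transcripts than at the gene level.

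The overexpression lines resembled the hairpin lines here and not shScr. In the transcript table, the coding transcript measured 13.2, 11.6 and 10.7 CPM in EV and 10.4, 11.4 and 7.97 CPM in OE. In order of mean level the lines were shScr (1.72), KD4 (9.02), OE (9.93), EV (11.9) and KD6 (15.2). The ranges of neighbouring lines overlapped throughout this order except between shScr and KD4. The coding share was 90.7% ± 1.56 in EV and 83.4% ± 7.77 in OE.

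**Figure D2:**
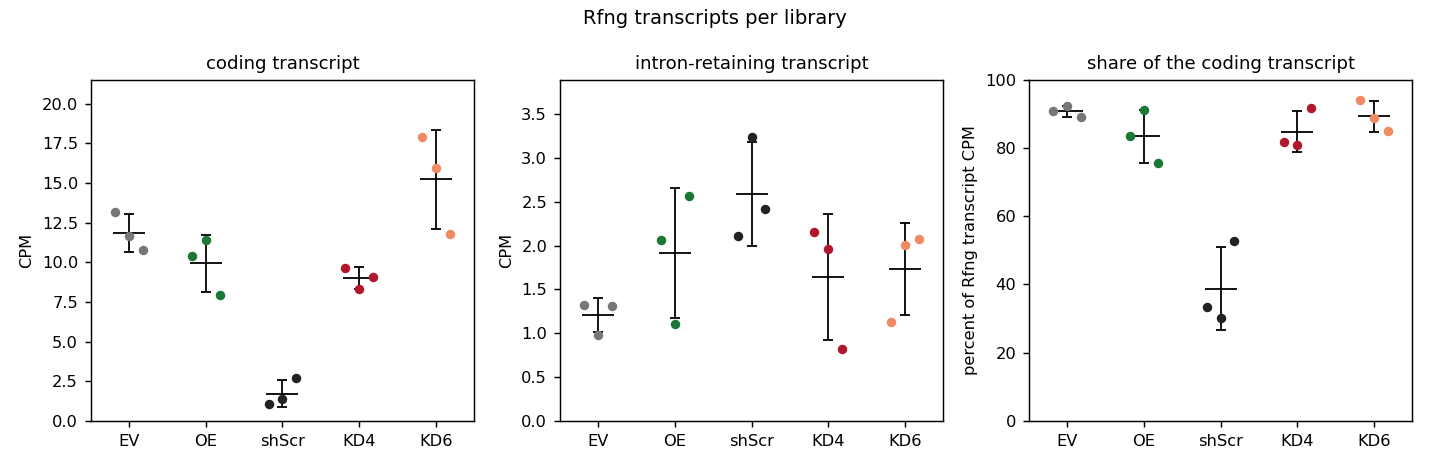
CPM of both Rfng transcripts and the share of the coding transcript (percent of their summed CPM), by line. Points are libraries, and horizontal marks and bars are the mean ± SD of 3 libraries. The shScr libraries lie lowest in the coding transcript (1.05 to 2.703 CPM) and in its share (30.3 to 52.8%).

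OE was compared with EV to ask whether more Smarcd1 changed Rfng. This contrast played no part in picking the gene. Neither the gene level (11.1 ± 0.5003 against 11.9 ± 1.25 CPM, log2 change -0.09 ± 0.09, adjusted p = 0.700) nor the coding transcript (log2 change -0.24 ± 0.15, adjusted p = 0.592) passed the limma test. The intron-retaining transcript had a log2 change of 0.37 ± 0.20 (adjusted p = 0.562), with 1 OE library inside the EV range. The test of transcript use, by limma's diffSplice, gave an unadjusted p of 0.0397 for Rfng and an adjusted p of 0.276.

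Neurl1b, the Neuralized ubiquitin ligase that acts on ligands, moved the other way in the hairpin lines. The gene lies at chr17:26551910-26583283 of NCBIM37, on the plus strand, with no overlapping gene and 1 listed transcript, a coding one of 5 exons. It measured 13.7, 15.6 and 19.3 CPM in shScr, 5.26, 5.10 and 4.09 CPM in KD4, and 5.49, 6.79 and 5.57 CPM in KD6. KD4 stood at 29.7% and KD6 at 36.7% of the shScr mean. The log2 change of KD was -1.43 ± 0.13 (SE), and no hairpin library overlapped with shScr, as in 10.8% of all genes. The KD6 libraries all lay above the KD4 libraries, with a log2 difference of 0.26 ± 0.14, and 21.6% of all genes lay apart between these lines.

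In EV and OE, Neurl1b was also low. On the gene scale of their own table, EV measured 7.21, 6.53 and 7.10 CPM and OE 8.06, 6.51 and 7.35 CPM. These ranges overlap, and the difference did not pass the limma test (log2 change 0.06 ± 0.09, adjusted p = 0.811). In the transcript table, which holds all lines on 1 scale, the order of mean CPM was KD4 (4.70), KD6 (5.76), EV (6.73), OE (7.15) and shScr (15.8). KD4 and KD6 did not overlap but lay close, KD6 overlapped EV, and EV overlapped OE. The gap below shScr was the widest, from 7.88 CPM in the highest OE library to 13.4 CPM in the lowest shScr library. So for Neurl1b and for the coding transcript of Rfng, shScr was the line that stood apart from the other 4. With 1 scrambled line, a particularity of that line and an effect of the Smarcd1 hairpins cannot be told apart.

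**Figure D3:**
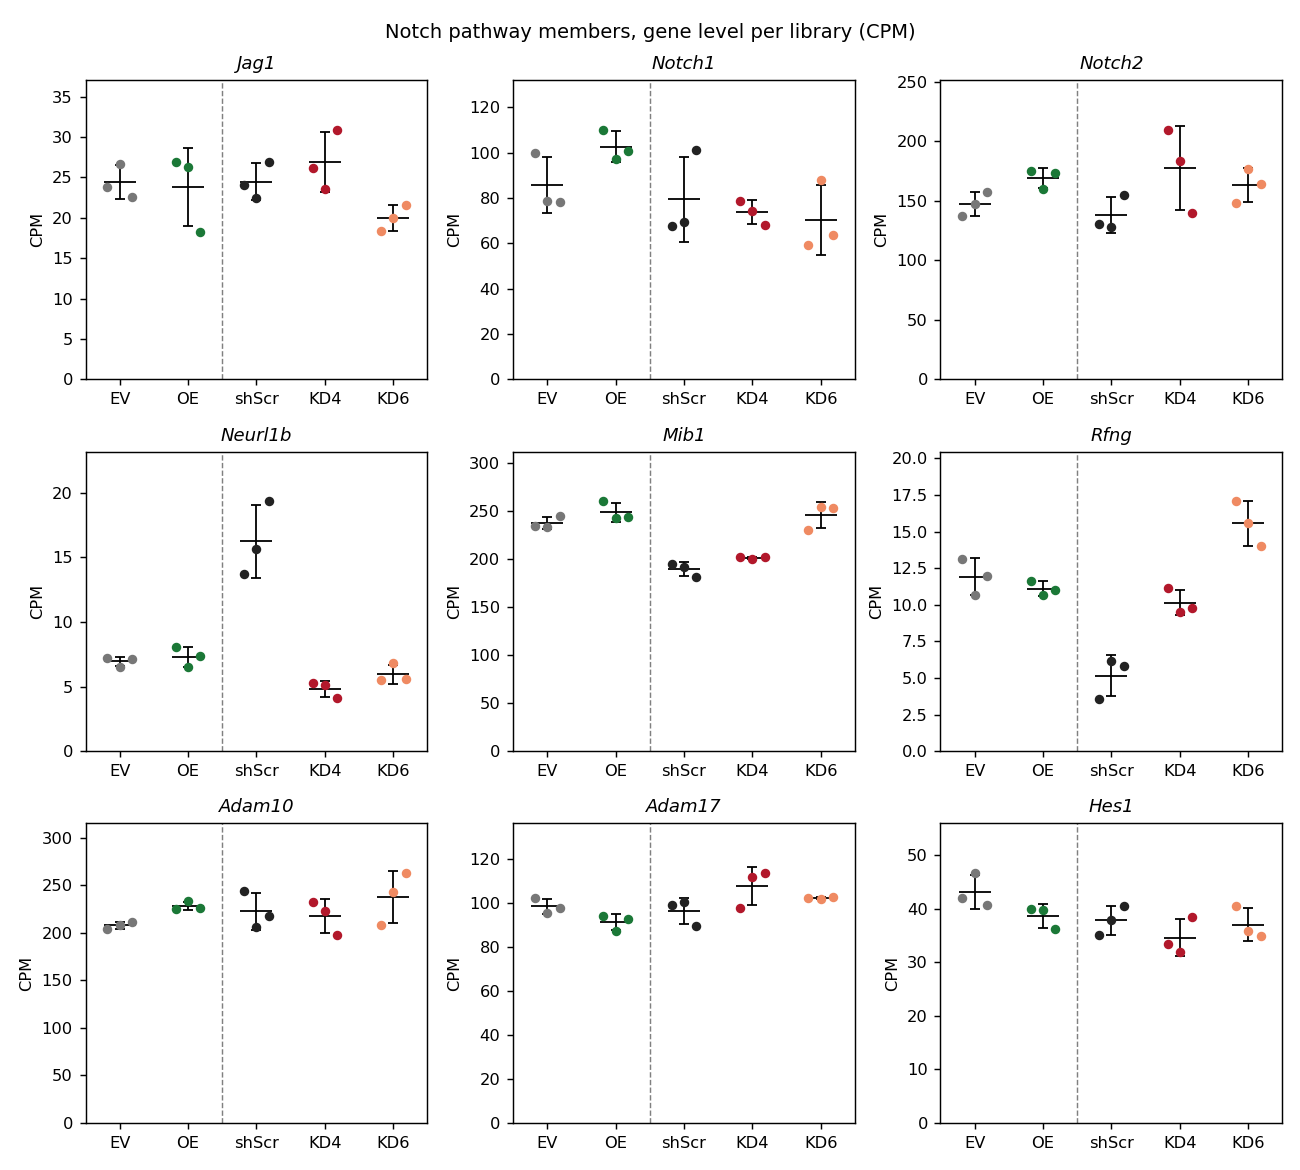
Gene level of the 9 members in CPM, by line. Points are libraries, horizontal marks and bars are the mean ± SD of 3 libraries, and the dashed line separates the EV and OE table from the hairpin table, which were normalized separately. Neurl1b is highest in shScr (13.7 to 19.3 CPM) and Rfng lowest there (3.57 to 6.14 CPM), while most other members differ little between lines.

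The genes whose log2 levels ran most like these 2 across the 15 libraries were ranked among 10023 genes by Pearson's correlation, as a description. For Neurl1b they were Bsn (r = 0.948), Chd3 (0.928), Akr1b3 (0.922), Mdn1 (0.919) and Ogdhl (0.903). For the summed transcripts of Rfng they were Ywhag (0.936), Abcc3 (0.926), Itm2c (0.914), Neo1 (0.907) and Adamtsl3 (0.905). The libraries of a line share their cells, so these values describe mostly 5 lines.

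The other 7 members were compared in the same fits, with p-values adjusted over all genes of a table. Of all genes, 2.66% passed at an adjusted p under 0.05 in KD against shScr, 9.58% in KD4 against shScr, 2.91% in KD6 against shScr and 4.91% in KD6 against KD4. In OE against EV 0.00741% passed, which is Smarcd1 alone. Of the 7, none passed in KD or in KD4 against shScr, 1 passed in KD6 against shScr and in KD6 against KD4 (Mib1 in both), and none passed in OE. At an unadjusted p under 0.05 there were 2 of 7 in KD, 1 of 7 in KD4, 2 of 7 in KD6 against shScr, 2 of 7 in KD6 against KD4 and 3 of 7 in OE, where 17.3%, 24.7%, 15.3%, 17.4% and 13% of all genes reached that level. The median absolute log2 change of the 7 was 0.12 in KD and 0.13 in OE, beside 0.10 and 0.08 over all genes.

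Mib1, the Mind bomb ligase that shares the ligand as a substrate with the Neuralized family, was higher in KD6. It measured 194, 192 and 181 CPM in shScr, 202, 200 and 202 CPM in KD4, and 230, 254 and 253 CPM in KD6. The 3 lines did not overlap. Of all genes, KD4 and shScr lay apart in this way in 29.5%, KD6 and shScr in 22.2%, and KD6 and KD4 in 21.6%. KD6 was 1.30 times shScr (log2 change 0.38 ± 0.06, limma adjusted p = 0.0110) and 1.22 times KD4 (log2 change 0.29 ± 0.06, adjusted p = 0.0263). KD4 was 1.06 times shScr (adjusted p = 0.426), and the KD group as a whole did not pass (log2 change 0.23 ± 0.09, adjusted p = 0.220). Without KD6 replicate 2 the rise over shScr no longer passed (adjusted p = 0.0656). The difference from KD4 was lost without shScr replicate 2, without any 1 of the KD4 replicates, or without KD6 replicate 2 or 3 (adjusted p = 0.0510 to 0.123). In OE Mib1 was 1.05 times EV (adjusted p = 0.568).

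In the transcript table the summed Mib1 transcripts averaged 185 CPM in shScr, 199 in KD4, 233 in EV, 241 in KD6 and 244 in OE. The last 3 of these lines overlapped, so KD6 was high against the other hairpin lines but not against EV and OE. The main coding transcript held 89.2 to 90.7% of Mib1 in the mean of every line. Annotated small RNA genes lie within Mib1, and reads from them could not be separated.

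Notch1 and Notch2 encode the receptors. Notch1 measured 67.5, 69.2 and 101 CPM in shScr, 78.8, 74.3 and 68.0 CPM in KD4, and 59.1, 87.8 and 63.5 CPM in KD6. The lines overlapped, and 1 library each in shScr and KD6 lay well above the other 2 (KD log2 change -0.13 ± 0.14, limma adjusted p = 0.705). In OE Notch1 measured 110, 97.0 and 101 CPM against 99.7, 78.7 and 78.3 CPM in EV, with the highest EV library within the OE range (log2 change 0.27 ± 0.10, adjusted p = 0.324). That library was EV replicate 1, which lay apart on the principal component. The retained-intron transcript of Notch1 stayed between 1.17 and 2.02 CPM, and 97.6 to 98.3% of the transcript CPM was in the coding transcript in the mean of each line. Annotated long noncoding RNA genes, 2 in number, overlap Notch1 on the opposite strand. Whether reads from them were kept apart is not known.

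Notch2 measured 131, 128 and 155 CPM in shScr, 210, 183 and 140 CPM in KD4, and 148, 177 and 164 CPM in KD6. Its mean was higher in both hairpin lines, but the libraries overlapped with shScr and the test was not passed (KD log2 change 0.30 ± 0.12, limma adjusted p = 0.226). KD4 against shScr did not pass either (limma adjusted p = 0.142). Over the fits without 1 library its log2 change ran from 0.22 to 0.51. The adjusted p was 0.0197 without KD4 replicate 3, the only such fit that passed, and reached 0.319 in another. In OE it measured 175, 160 and 173 CPM against 137, 147 and 158 CPM in EV. The OE libraries all lay above the EV libraries, as those of 20% of all genes lay apart in one direction or the other, and the difference did not pass (log2 change 0.20 ± 0.06, adjusted p = 0.291).

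Jag1 encodes a ligand, the substrate of both ligases. It measured 24.1, 22.4 and 26.9 CPM in shScr, 26.2, 23.6 and 30.9 CPM in KD4, and 18.4, 19.9 and 21.6 CPM in KD6. KD6 was the lowest line and did not overlap with the other hairpin lines. Of all genes, 22.2% lay apart between KD6 and shScr and 21.6% between KD6 and KD4, in one direction or the other. KD6 stood at 81.5% of shScr (log2 change -0.28 ± 0.11, limma adjusted p = 0.243) and 74.1% of KD4 (log2 change -0.41 ± 0.11, adjusted p = 0.0628). Neither difference passed. OE and EV averaged 23.8 ± 4.85 and 24.4 ± 2.11 CPM (adjusted p = 0.904).

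Adam10 and Adam17 are proteases that can cut the receptor outside the membrane. Adam10 averaged 223 ± 19.5 CPM in shScr, 218 ± 17.7 in KD4 and 238 ± 27.6 in KD6, with overlapping libraries (KD limma adjusted p = 0.906). In OE it measured 225, 233 and 226 CPM against 204, 208 and 211 CPM in EV. The 2 groups did not overlap, as in 20% of all genes, and the change of 1.10-fold did not pass (log2 change 0.13 ± 0.04, adjusted p = 0.283). Of its 3 transcripts the coding one held 95.6 to 98.0% in the mean of each line. A transcript annotated for nonsense-mediated decay, a pathway that degrades messages with an early stop, averaged between 3.06 CPM in EV and 8.41 CPM in shScr, with an SD of 4.60 in shScr.

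Adam17 measured 99.3, 101 and 89.8 CPM in shScr, 98.0, 112 and 114 CPM in KD4, and 102, 102 and 103 CPM in KD6 (KD log2 change 0.12 ± 0.07, limma adjusted p = 0.383). In OE it measured 94.0, 87.2 and 93.0 CPM against 102, 95.6 and 97.9 CPM in EV, which did not pass the test (adjusted p = 0.405). The OE libraries all lay below the EV libraries, as those of 20% of all genes lay apart in one direction or the other. Adam17 had the most transcripts of the members, 1 coding, 2 annotated for nonsense-mediated decay and 1 with a retained intron. The coding transcript held 55.4 to 58.6% of Adam17 in the hairpin lines, 67.9% ± 3.27 in EV and 62.6% ± 1.14 in OE. In EV it measured 65.8, 57.8 and 65.4 CPM and in OE 54.1, 50.9 and 55.2 CPM, which did not pass (log2 change -0.23 ± 0.07, adjusted p = 0.472). Transcript use of Adam17 in OE reached an unadjusted p of 0.0334 in diffSplice and an adjusted p of 0.258. The decay transcript ENSMUST00000127974 lay between 25.8 and 27.0 CPM in KD4 and between 17.5 and 20.7 CPM in shScr, while KD6 ran from 17.5 to 25.2 CPM and the KD group did not pass (limma adjusted p = 0.512). KD4 alone was not tested against shScr for transcripts, and the share of all transcripts lying apart was not counted. At the gene level 29.5% of all genes lay apart between KD4 and shScr. Iah1 overlaps Adam17 on the opposite strand, and whether the counting used strand is not given in the sources used here.

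Hes1, a transcriptional repressor and the best known direct target of Notch, varied little. It measured 35.1, 37.95 and 40.6 CPM in shScr, 33.4, 31.8 and 38.5 CPM in KD4, 40.6, 35.8 and 34.8 CPM in KD6, 42.0, 46.6 and 40.7 CPM in EV, and 40.0, 39.8 and 36.2 CPM in OE. The hairpin lines overlapped (KD log2 change -0.08 ± 0.08, limma adjusted p = 0.676). OE lay below EV in every library, as 20% of all genes lay apart in one direction or the other. The change did not pass (log2 change -0.15 ± 0.07, adjusted p = 0.397).

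**Figure D4:**
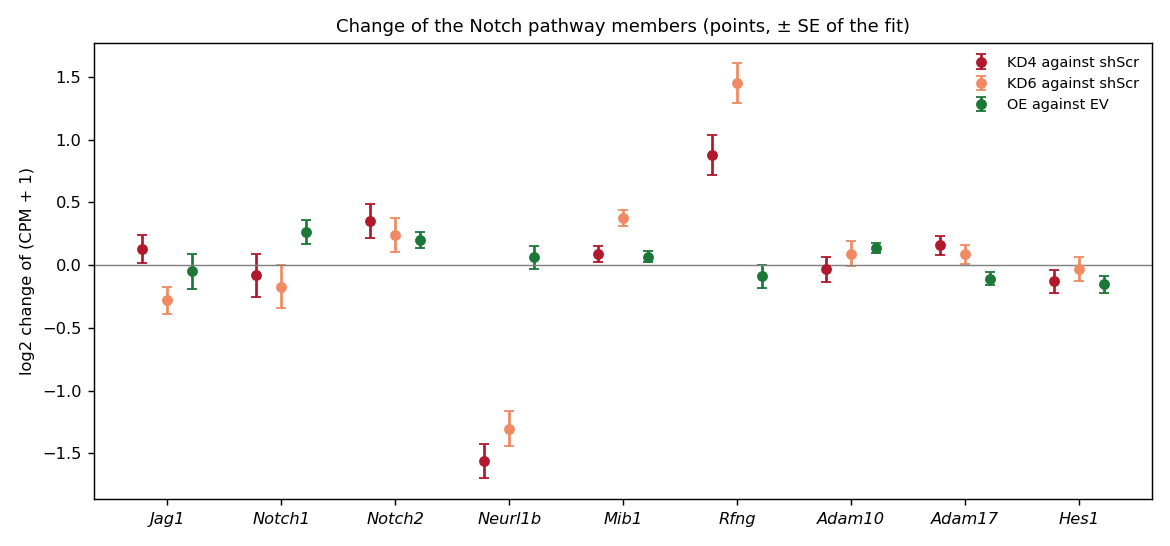
Log2 change of (CPM + 1) of the 9 members in KD4 and KD6 against shScr and in OE against EV, with the SE of the fit as bars. KD4 and KD6 share the shScr libraries. Neurl1b (-1.56 and -1.30) and Rfng (0.88 and 1.45), which were picked on the KD contrast, lie far from 0 in both hairpin lines, and the OE values of all 9 lie between -0.15 and 0.27.

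Over the 16 transcripts of the other 7 members, none passed in KD against shScr or in OE against EV, where 0.295% and 0% of all transcripts passed in limma. At an unadjusted p under 0.05 there were 2 of 16 in KD and 4 of 16 in OE, beside 12% and 9.65% of all transcripts. In a fit of all 15 libraries that compared the OE effect with the KD effect, none of the 16 passed either (smallest adjusted p = 0.206, 2 at an unadjusted p under 0.05), where 0.238% of all transcripts did. Of the members with at least 2 transcripts other than Rfng, none passed the test of transcript use in KD or in OE (adjusted p = 0.642 to 0.968 in KD and 0.258 to 0.968 in OE), where 1.29% and 1.37% of all genes tested did.

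A wider list of 68 further Notch pathway genes was followed in the same fits, and 53 of them were listed in the hairpin table and 55 in the OE and EV table. Among those not listed in either table were the fringe Mfng, the ligand Dll3, the ligase Neurl1a and the target genes Hes5, Hes7, Hey1, Hey2 and Heyl. None of the 53 passed in KD against shScr (7 at an unadjusted p under 0.05, the level that 17.3% of all genes reached). Those with the smallest p were Poglut3, which adds O-linked glucose to Notch repeats (log2 change 0.30 ± 0.09, limma adjusted p = 0.111), and Nrarp, a target gene that feeds back on the receptor (0.25 ± 0.08, adjusted p = 0.119).

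In KD4 5 of the 53 passed (9.43%, close to the 9.58% of all genes), and 3 rose and 2 fell (5.71% and 3.87% of all genes). Jag2, the second Jagged ligand, fell the most. It measured 92.2, 110 and 112 CPM in shScr, 50.9, 52.9 and 41.4 CPM in KD4, and 107, 132 and 111 CPM in KD6. KD4 stood at 46.4% of shScr (log2 change -1.10 ± 0.11, limma adjusted p = 0.000372) and was clear of every other library. Of all genes, 29.5% lay apart between KD4 and shScr and 21.6% between KD6 and KD4, in one direction or the other. KD6 did not differ past the test from shScr (log2 change 0.16 ± 0.11, adjusted p = 0.584) and was 2.41 times KD4 (log2 difference 1.25 ± 0.11, adjusted p = 0.000339). In EV and OE Jag2 averaged 106 ± 13.7 and 111 ± 11.4 CPM (adjusted p = 0.780). Its low level was seen in KD4 and in no other of the 5 lines.

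Kat2b, an acetyltransferase of the coactivator complex, had the same order. It measured 60.1, 62.3 and 60.4 CPM in shScr, 34.5, 37.95 and 41.2 CPM in KD4, and 74.3, 69.9 and 63.5 CPM in KD6. KD4 stood at 62.1% of shScr (log2 change -0.68 ± 0.08, limma adjusted p = 0.000791) and KD6 was 1.83 times KD4 (log2 difference 0.85 ± 0.08, adjusted p = 0.000407). The calls of Jag2 and Kat2b held without any 1 library. Jag2 and Kat2b were also the only 2 of the 53 that passed in KD6 against KD4, so 3.77% passed there.

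The 3 that rose in KD4 were Maml1, Sox9 and Pofut1. Maml1, a Mastermind coactivator, measured 64.7, 50.7 and 42.8 CPM in KD4 against 32.1, 30.7 and 37.5 CPM in shScr (log2 change 0.63 ± 0.15, limma adjusted p = 0.0250). Sox9, a transcription factor regulated by Notch in several tissues, measured 51.0, 34.6 and 30.8 CPM against 22.1, 18.4 and 25.6 CPM (log2 change 0.77 ± 0.19, adjusted p = 0.0290). Pofut1, which adds the fucose that fringe enzymes extend, measured 37.8, 38.5 and 37.7 CPM against 31.4, 32.4 and 32.7 CPM (log2 change 0.23 ± 0.07, adjusted p = 0.0498). In all of these KD4 lay above shScr without overlap, as 29.5% of all genes lay apart in one direction or the other. The Maml1 and Sox9 calls were lost without shScr replicate 1 or 2 or KD4 replicate 1 or 2 (adjusted p = 0.0558 to 0.110), and that of Pofut1 without any 1 of the shScr or KD4 replicates or KD6 replicate 1 or 2 (adjusted p = 0.0576 to 0.145).

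In KD6 against shScr none of the 53 passed (4 at an unadjusted p under 0.05, beside 15.3% of all genes). Nrarp (log2 change 0.30 ± 0.08, limma adjusted p = 0.0986) and Numb, an inhibitor that sends the receptor for breakdown (0.22 ± 0.07, adjusted p = 0.176), had the smallest p.

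**Figure D5:**
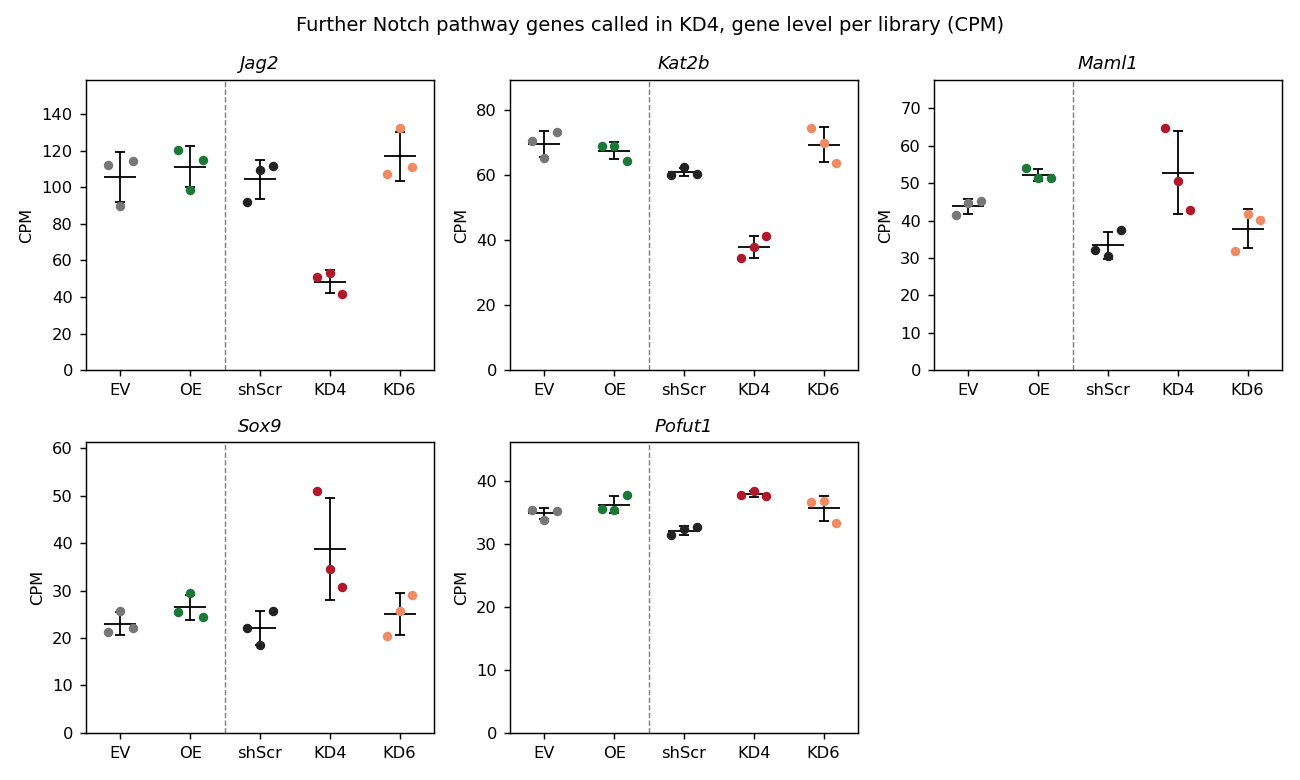
Gene level in CPM of the 5 further Notch pathway genes that passed in KD4 against shScr. Points are libraries, horizontal marks and bars are the mean ± SD of 3 libraries, and the dashed line separates tables normalized separately. Jag2 (41.4 to 52.9 CPM) and Kat2b (34.5 to 41.2 CPM) are lowest in KD4, where Maml1, Sox9 and Pofut1 lie above shScr.

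In OE against EV none of the 55 passed in limma, with 8 at an unadjusted p under 0.05, beside 13% of all genes. The smallest p in the list were those of Ep300, an acetyltransferase coactivator (207 ± 7.72 against 165 ± 5.83 CPM, log2 change 0.32 ± 0.05, adjusted p = 0.157), and Spen, a corepressor that binds Rbpj (193 ± 9.73 against 149 ± 8.38 CPM, log2 change 0.37 ± 0.06, adjusted p = 0.157). Maml1 was 1.19 times as high (log2 change 0.25 ± 0.05, adjusted p = 0.195).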

How the data were processed

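RNA was extracted 24 h after seeding at 70% confluence, with an integrity number above 7. Values deposited by the authors were CPM per gene or transcript, estimated from fractional read assignment. Per the labels, STAR 2.7.8a and mm39 were used, but the published methods describe another aligner with an earlier build, and which of these made the tables is unsettled. No whole-read steps were found, and the depth per library and its counting error are unknown. Library sums of the listed genes were 894250 to 923092 CPM. No listed gene had a geometric mean under 1.00 CPM, and genes below that are missing. Columns of the transcript table that match no label, 15 in number, were not used. Symbols came from a name table that matched 87.3% and 88.1% of identifiers.

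Values were transformed to log2(CPM + 1), which understates changes of low genes, and tested two-sided with limma 3.58.1 (R 4.3.3, intensity trend) with Benjamini-Hochberg adjustment over all features of a table and a threshold of 0.05. KD (6) was compared with shScr (3), and OE (3) with EV (3). A second fit held KD4, KD6 and shScr as separate groups. Transcripts were tested alike, and transcript use with diffSplice and Simes' method. The fits were also run on simulated data with independent noise per library, which does not show how they behave where libraries of a line deviate together. Alternatives were a pseudocount of 0.1, quantile normalization, a minimum mean of 5 CPM, a replicate block, the mean of the hairpins, each library left out, and, added after the data were seen, median of ratios scaling.

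The members and gene lists were chosen with earlier results of these data known. Named were all members, wider-list genes past the threshold or, where a comparison had fewer than 2, the 2 with the smallest p, and 5 genes most like Neurl1b and Rfng. Gene positions, transcript models and sequences came from NCBIM37 with GENCODE M1, which held 18 of the 19 transcripts, and are independent of the build of the files. Figures were drawn with matplotlib 3.10.9.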

Additional observations from a re-analysis of the deposited data

Results flagged for a closer look

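Jag2, Kat2b and Mib1 differed between both hairpin lines, KD6 against KD4, by the limma test of the difference itself, with Benjamini-Hochberg adjustment over 13669 genes. The log2 difference was 1.25 for Jag2 (adjusted p = 0.000339), with 107 to 132 CPM in KD6 and 41.4 to 52.9 CPM in KD4. It was 0.85 for Kat2b (adjusted p = 0.000407), with 63.5 to 74.3 CPM in KD6 and 34.5 to 41.2 CPM in KD4. It was 0.29 for Mib1 (adjusted p = 0.0263), with 230 to 254 CPM in KD6 and 200 to 202 CPM in KD4, and this call was lost in several fits that left out 1 library. In each case KD6 was higher in 3 of 3 libraries, as 21.6% of all genes lay apart between these lines in one direction or the other. Smarcd1 averaged 14.4 CPM in KD6 and 9.13 CPM in KD4, and its part in these differences was not tested.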

How the results depend on the processing

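Of the log2 changes of the members, the wider-list genes that passed and the Rfng transcripts, 63 kept their sign in every alternative run and 11 changed it in some fits that left out 1 library. The ranges of these 11 over the fits without 1 library, none of which passed, were -0.0249 to 0.0969 (log2) for Adam10 and -0.228 to 0.0595 for Notch1 in KD, -0.0863 to 0.0355 for Adam10 and -0.184 to 0.104 for Notch1 in KD4, -0.342 to 0.0148 for Notch1 and -0.0965 to 0.0180 for Hes1 in KD6, -0.269 to 0.0209 for Notch2 and -0.261 to 0.0219 for Notch1 in KD6 against KD4, and -0.145 to 0.124 for Jag1, -0.0331 to 0.163 for Jag2 and -0.00309 to 0.132 for Neurl1b in OE. Without 1 library, members passing numbered 0 to 2 in KD6 against KD4, and wider-list genes 2 to 5 in KD4 and 2 to 4 in KD6 against KD4 (4 without KD4 replicate 3). Where both hairpin lines were averaged in the 3-group fit, 1 wider-list gene passed in KD (Jag2, adjusted p = 0.0210) in place of 0, as did Mib1 (adjusted p = 0.0322). Same-numbered libraries did not deviate together (correlations -0.328 to 0.0614 in the hairpin table and -0.149 to 0.258 in the other), so the replicate numbers were not taken as pairs. Between differently numbered libraries of different lines the correlations were -0.332 to 0.422 and -0.329 to 0.224. Such shared deviations are not covered by a block on the replicate number. The replicate block gave 2 wider-list genes in KD4 in place of 5 and 0 members in KD6 against KD4 in place of 1. Mib1 in KD6 had an adjusted p of 0.0607 with the block. A pseudocount of 0.1, quantile normalization and median of ratios scaling changed none of these counts by over 1.5 times. Counts over the members in KD hold only Neurl1b and Rfng, which were picked on that contrast, so they are no test and describe only how the fits vary. Members numbered 1 to 2 and member transcripts 0 to 2 without 1 library (Rfng was absent without shScr replicate 1, and both transcripts without any 1 shScr replicate). Member transcripts numbered 0 with the replicate block, in KD and for the OE effect against the KD effect. With a minimum mean of 5 CPM, members with changed transcript use numbered 0, since this filter removes the intron-retaining transcript of Rfng. The depth is unknown, so counting error could not be set beside low values such as the Rfng transcripts in shScr (1.05 to 3.24 CPM).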
